A study of Homo sapiens with 15 samples.

Results

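The RNA of 28 genes that build, sense or carry cholesterol and fatty acids was followed in cell line-derived xenograft (CDX) tumors of human cholangiocarcinoma (CCA), an adenocarcinoma of the bile ducts. The genes were chosen by symbol, each as the row of the count table whose Ensembl identifier maps to that symbol, and they are 28 of the 58735 genes in the table. All 28 were among the 21019 genes that passed a filter on low counts and were tested. The data hold 15 tumors, 5 each of HuCC-A1 and HuCC-T1, which are intrahepatic CCA lines, and of EGI-1, which is an extrahepatic CCA line. Every tumor grew in an NRG mouse (non-obese diabetic, Rag1-/- IL2Rgc-/-), an immunodeficient host that still provides mouse stroma and vessels. Every mouse received only the vehicle, phosphate-buffered saline injected into the peritoneum once per week, over 6 weeks for HuCC-A1 and over 4 weeks for EGI-1. No duration is given for HuCC-T1 in the labels. Each model is 1 cell line, so that cell line, anatomical origin and, for HuCC-A1 against EGI-1, treatment duration cannot be told apart, and the p-values take the spread among tumors of the same line as their only error.

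Cells make cholesterol from acetyl-CoA by way of mevalonate, farnesyl diphosphate and squalene, and they make fatty acids from the same acetyl-CoA after it is released from citrate. Both routes are switched on by the SREBP transcription factors, which wait in the endoplasmic reticulum in a complex with SCAP and are held there by the INSIG proteins while sterols are plentiful. In the liver and biliary tree these routes feed membranes, lipoproteins and bile, and many tumors use them to make membrane lipid.

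Total counts per tumor ranged from 20001412 to 33585265 in HuCC-A1, from 26163778 to 33984103 in HuCC-T1 and from 34239460 to 44067878 in EGI-1, so that every EGI-1 library was deeper than all others. Mitochondrial genes took 4.5 to 11.3% of counts in HuCC-A1, 5.97 to 8.36% in HuCC-T1 and 3.94 to 5.64% in EGI-1 tumors. Of 10 markers of biliary epithelium, all were detected in each model, and their summed level was 9641 to 13115 CPM in HuCC-A1, 8176 to 19180 CPM in HuCC-T1 and 16143 to 27185 CPM in EGI-1. CPM are counts on a common total after TMM scaling, which compare 1 gene across tumors. Among 10 adipocyte markers, ADIPOQ and RETN had no count in any tumor and the summed level was 3.40 to 9.97 CPM in HuCC-A1, 7.30 to 9.81 CPM in HuCC-T1 and 4.86 to 12.1 CPM in EGI-1. The 12 fibroblast markers summed to 427 to 952 CPM in HuCC-A1, 828 to 3731 CPM in HuCC-T1 and 75.5 to 129 CPM in EGI-1. Collagens and POSTN made up most of these sums. COL3A1 averaged 638 CPM in HuCC-A1, POSTN 1216 and COL1A1 375 CPM in HuCC-T1, and COL1A1 84.5 CPM in EGI-1. Of the 12 markers, 6 averaged under 1 CPM in HuCC-A1, 5 in HuCC-T1 and 9 in EGI-1. The 18 proliferation genes summed to 1254 to 1714 CPM in HuCC-A1, 1006 to 2062 CPM in HuCC-T1 and 1516 to 2031 CPM in EGI-1. Endothelial markers, 8 genes, summed to 16.2 to 32.3 CPM in HuCC-A1, 13.5 to 25.3 CPM in HuCC-T1 and 3.60 to 4.48 CPM in EGI-1, and 12 hepatocyte markers, 10 of them under 1 CPM in each model, to 355 to 628 CPM in HuCC-A1, 259 to 455 CPM in HuCC-T1 and 126 to 195 CPM in EGI-1. The hepatocyte sum was mostly that of 1 gene, SERPINA1, which averaged 515 CPM in HuCC-A1, 346 CPM in HuCC-T1 and 159 CPM in EGI-1. ALB averaged 0.10 CPM in HuCC-A1, 0.02 CPM in HuCC-T1 and 0.14 CPM in EGI-1. CYP2E1 averaged 2.83 CPM in HuCC-A1, 24.4 CPM in HuCC-T1 and 2.48 CPM in EGI-1. The adipocyte sums of the models overlapped. Depth and the fibroblast, endothelial and hepatocyte sums separated EGI-1 from both other models without overlap, together with many of the genes below. The fibroblast, endothelial and hepatocyte sums were carried by few genes and do not measure how many such cells a tumor held. Of the endothelial markers, PECAM1 averaged 7.95 CPM in HuCC-A1, 14.6 CPM in HuCC-T1 and 1.94 CPM in EGI-1. VWF averaged 15.9 CPM in HuCC-A1, 1.49 CPM in HuCC-T1 and 1.56 CPM in EGI-1. The part of depth and of these sums in the results was not tested. In bulk tumors, fewer cells that express a gene and less RNA of it per cell cannot be told apart.

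EGI-1 tumors held the most RNA of this pathway. Their mean was the highest of the 3 models for 25 of the 28 genes, and the exceptions were CYP51A1, TM7SF2 and SCAP, each highest in HuCC-A1. The lowest mean belonged to HuCC-A1 for 17 genes, to HuCC-T1 for 10 and to EGI-1 for CYP51A1. These counts rank means without a test, and the share of all genes with each order was not computed. Some means were nearly equal. EBP averaged 71.7 CPM in EGI-1 and 70.8 CPM in HuCC-T1. In HuCC-A1 and HuCC-T1, CYP51A1 averaged 7.50 and 7.35 CPM, and SREBF2 146 and 145 CPM. Summed over the 28 genes, the level was 1250 ± 142 length-scaled reads on a common total (TPM) in HuCC-A1, 1374 ± 231 TPM in HuCC-T1 and 2513 ± 220 TPM in EGI-1 tumors (SD, n = 5 each). The lowest EGI-1 sum, 2328 TPM, lay above the highest HuCC-A1 sum of 1425 TPM and the highest HuCC-T1 sum of 1756 TPM.

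**Figure D1:**
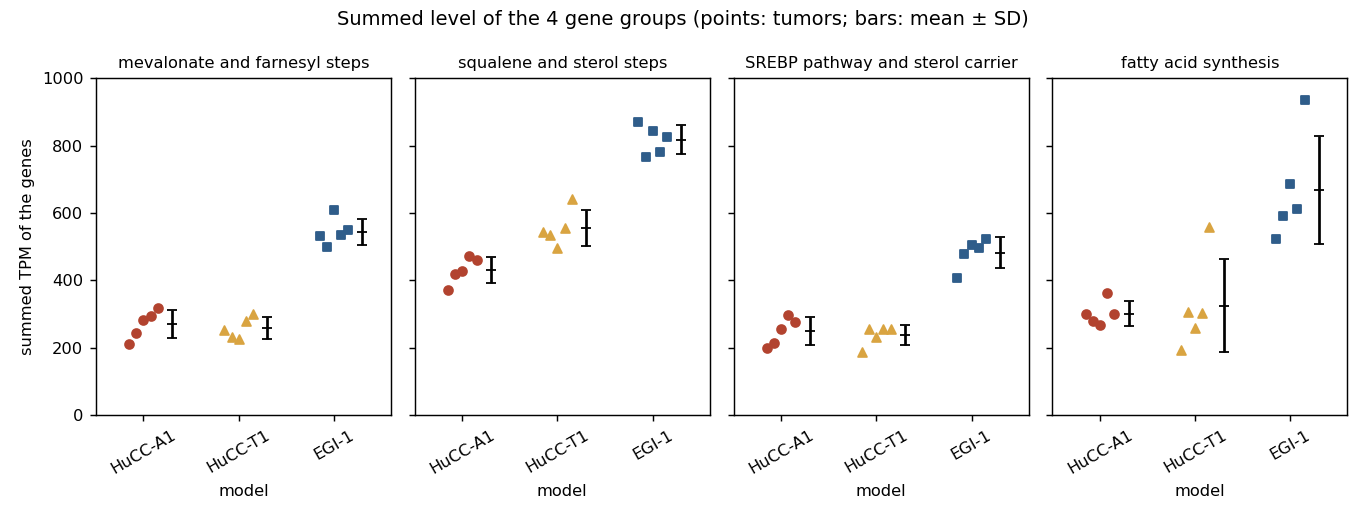
Summed TPM of the 4 gene groups by model. Points are single tumors, bars are the mean ± SD of 5 tumors, and the axis starts at 0. Squalene and sterol genes summed to 431 ± 39.5 TPM in HuCC-A1, 554 ± 53.2 TPM in HuCC-T1 and 818 ± 42.8 TPM in EGI-1, and the EGI-1 tumors lie above all others in every group but fatty acid synthesis, where 1 HuCC-T1 tumor at 559 TPM overlaps them.

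A gene was called when its adjusted p from the quasi-likelihood F test of edgeR was under 0.05, with Benjamini-Hochberg adjustment over 21019 genes. In HuCC-A1 tumors 22 of the 28 genes were lower than in EGI-1, 2 were higher and 4 were not called, where 26% of all genes tested were lower, 29.4% were higher and 55.4% were called in either direction. The median log2 fold change of the 28 genes was -1.04, against 0.06 for all genes tested. HuCC-T1 tumors had 17 genes lower than EGI-1, 1 higher and 10 not called, where 25% of all genes were lower, 27.3% higher and 52.3% either. There the median of the 28 genes was -0.77, against 0.06 for all genes. Of the 28 genes, 16 were lower in both comparisons, which share the EGI-1 tumors, and 12.2% of all genes were. Between HuCC-A1 and HuCC-T1 the genes split, with 6 higher, 8 lower and 14 not called (29.1% of all genes higher, 27.2% lower and 56.3% either) and a median log2 fold change of -0.17, against 0.05 for all genes. A test across the 3 models called 24 of the 28 genes, where it called 75.8% of all genes. The 28 genes were chosen with earlier results of these data known, and their counts were not tested against these shares.

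The differences from EGI-1 were often large. In HuCC-A1 against EGI-1, 14 of the 28 genes were called lower by at least 2-fold, against 16.2% of all genes, and the CPM ranges of 21 lay below those of EGI-1 without overlap, as did those of 21.6% of all genes. HuCC-T1 against EGI-1 gave 11 genes lower by at least 2-fold, against 15.2% of all genes, and 14 with lower ranges that did not overlap, against 18.8% of all genes. CYP51A1 and SCAP in HuCC-A1 and CYP51A1 in HuCC-T1 lay above EGI-1 without overlap, as did 23% and 18.9% of all genes in these comparisons. Between HuCC-A1 and HuCC-T1, 6 genes had lower and 3 had higher ranges without overlap, against 18.8% and 20% of all genes. An alternative chosen after the data were seen left out HuCC-T1 replicates 1 and 5. There 23 genes were lower in HuCC-A1 and 21 in HuCC-T1 than in EGI-1, against 6154 and 5603 of all 22368 genes tested in that fit. Replicate 5 was more than 0.5 above the median of its model on the log2 scale for 11 of the 28 genes. Leaving it out therefore lowers HuCC-T1 in part by construction. Replicate 1 was more than 0.5 from the median of its model for 40.4% of all genes tested, against 13.9 to 32.0% in the other 14 tumors. It also stood apart in the marker sums given further on.

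**Figure D2:**
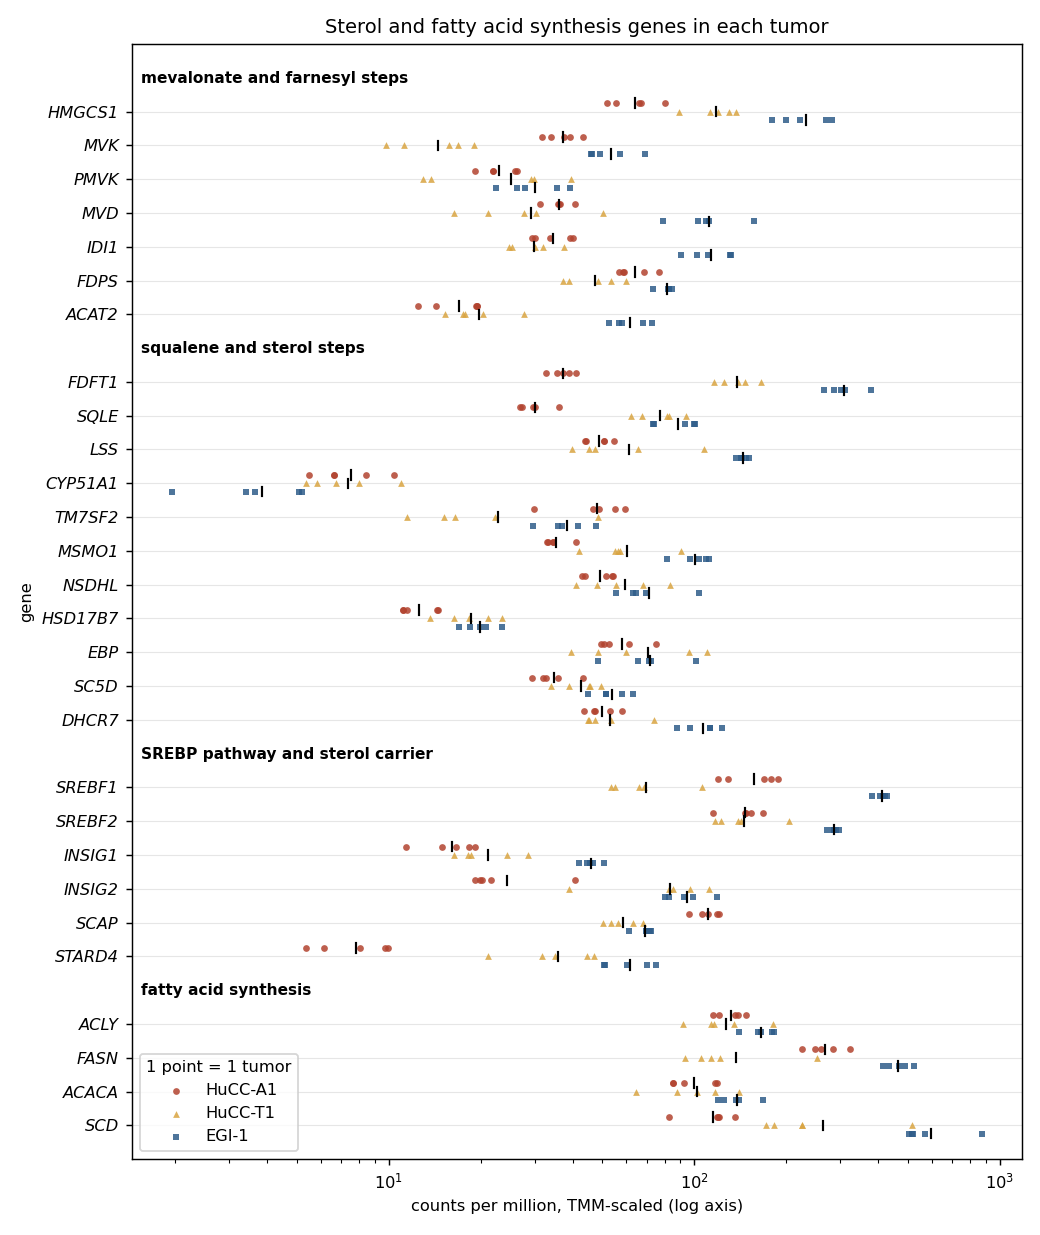
Level of each gene in each of the 15 tumors, in CPM on a log axis, with genes grouped by role. Each point is 1 tumor and each black tick is the mean of 5 tumors. EGI-1 squares lie furthest right for most genes, and FDFT1 and STARD4 spread the 3 models furthest apart. SCAP is an exception, and so is CYP51A1, whose level is uncertain because a second gene model shares most of its exon bases.

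The first 7 genes lead from acetyl-CoA to farnesyl diphosphate. In HuCC-A1 and likewise in HuCC-T1, 6 of them were lower than in EGI-1, with median log2 fold changes of -1.64 in each, and PMVK was not called. HMGCS1 (chr5:43289395-43313512, GRCh38), the synthase that makes the precursor of mevalonate, had 55.6, 52.0, 67.1, 66.1 and 80.1 CPM in HuCC-A1, 89.0, 130.4, 119.6, 113 and 137 CPM in HuCC-T1 and 200.5, 179.8, 284, 223 and 271 CPM in EGI-1. All 5 HuCC-A1 tumors lay under all HuCC-T1 tumors, and these under all EGI-1 tumors. HMGCS1 was 3.61-fold lower in HuCC-A1 than in EGI-1 (log2 fold change -1.85, SE 0.16, adjusted p = 6.43e-08), 1.96-fold lower in HuCC-T1 than in EGI-1 (log2 fold change -0.97, SE 0.16, adjusted p = 8.44e-05) and lower in HuCC-A1 than in HuCC-T1 (log2 fold change -0.88, SE 0.16, adjusted p = 0.000199). An antisense gene on the other strand covers 703 of its 4702 exon bases.

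ACAT2, the cytosolic thiolase of the first step, averaged 17.0 ± 3.38 CPM in HuCC-A1, 19.7 ± 4.79 CPM in HuCC-T1 and 61.7 ± 8.35 CPM in EGI-1 (SD, n = 5 each). It was lower in HuCC-A1 (log2 fold change -1.86, SE 0.18, adjusted p = 1.87e-07) and in HuCC-T1 (log2 fold change -1.64, SE 0.18, adjusted p = 1.07e-06) than in EGI-1. Its exons share 52.3% of their bases with genes on the opposite strand, SOD2, SOD2-OT1 and TCP1, and since the strand setting of the counting is not given its counts are uncertain. IDI1, the isomerase that makes the allylic starter of isoprenoid chains, averaged 34.5 ± 4.97 CPM in HuCC-A1, 29.9 ± 5.26 CPM in HuCC-T1 and 113 ± 18.3 CPM in EGI-1, and neither HuCC-A1 nor HuCC-T1 overlapped EGI-1. MVD, the mevalonate diphosphate decarboxylase, averaged 36.0 ± 3.30 CPM in HuCC-A1, 29.2 ± 13.1 CPM in HuCC-T1 and 112 ± 28.2 CPM in EGI-1. Both genes were more than 3-fold lower than in EGI-1 in either model. For IDI1 the log2 fold change was -1.71 (adjusted p = 7.06e-08) in HuCC-A1 and -1.92 (adjusted p = 2.96e-08) in HuCC-T1, and for MVD it was -1.64 (adjusted p = 2.09e-05) in HuCC-A1 and -1.94 (adjusted p = 4.74e-06) in HuCC-T1. IDI2-AS1 covers 14.8% of the IDI1 exon bases on the other strand.

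MVK (chr12:109573255-109598117), the mevalonate kinase, had its low point in HuCC-T1. It had 31.8, 34.1, 37.4, 39.1 and 43.3 CPM in HuCC-A1, 19.1, 11.2, 9.76, 15.8 and 16.9 CPM in HuCC-T1 and 69.1, 49.2, 57.2, 46.1 and 46.0 CPM in EGI-1. The ranges of the 3 models did not overlap, with HuCC-T1 lowest and EGI-1 highest. HuCC-T1 was 3.68-fold lower than EGI-1 (log2 fold change -1.88, SE 0.18, adjusted p = 3.32e-07), and HuCC-A1 was 2.55-fold higher than HuCC-T1 (log2 fold change 1.35, SE 0.18, adjusted p = 8.8e-06). The difference of HuCC-A1 from EGI-1 was smaller (log2 fold change -0.53, SE 0.18, adjusted p = 0.02) and had an adjusted p = 0.0553 without EGI-1 replicate 1. FDPS, the farnesyl diphosphate synthase, averaged 64.0 ± 8.54 CPM in HuCC-A1, 47.5 ± 9.46 CPM in HuCC-T1 and 81.2 ± 4.46 CPM in EGI-1. It was lower in HuCC-T1 than in EGI-1 (log2 fold change -0.77, SE 0.14, adjusted p = 0.000194), while its call in HuCC-A1 against EGI-1 (log2 fold change -0.34, SE 0.14, adjusted p = 0.045) was lost in 7 of the 15 fits that left out a tumor, with adjusted p-values up to 0.0788. FDPS was also higher in HuCC-A1 than in HuCC-T1 (log2 fold change 0.43, SE 0.14, adjusted p = 0.0151), a call lost in 3 of those 15 fits. Its exons overlap RUSC1-AS1 on the opposite strand over 18.6% of their bases, and 8 pseudogenes carry its name. PMVK, the next kinase, averaged 23.0 ± 2.99 CPM in HuCC-A1, 25.0 ± 11.4 CPM in HuCC-T1 and 30.2 ± 6.90 CPM in EGI-1, with intervals of the log2 difference from EGI-1 of -0.94 to 0.16 in HuCC-A1 and -0.82 to 0.28 in HuCC-T1 (95% confidence).

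The 11 genes of the squalene and sterol steps included the largest difference of all 28 genes. In HuCC-A1 8 of them were lower and 1 was higher than in EGI-1, with a median log2 fold change of -0.67, and in HuCC-T1 5 were lower and 1 was higher, with a median of -0.34. FDFT1, the squalene synthase that commits farnesyl diphosphate to sterols, had 41.0, 37.1, 32.7, 35.5 and 39.0 CPM in HuCC-A1, 139, 147, 125, 116 and 165 CPM in HuCC-T1 and 381, 311, 302, 267 and 287 CPM in EGI-1. The models formed 3 separate bands, with every HuCC-A1 tumor under every HuCC-T1 tumor and these under every EGI-1 tumor. It was 8.35-fold lower in HuCC-A1 than in EGI-1 (log2 fold change -3.06, SE 0.13, adjusted p = 1.84e-11), 2.24-fold lower in HuCC-T1 than in EGI-1 (log2 fold change -1.16, SE 0.13, adjusted p = 1.46e-06) and 3.73-fold lower in HuCC-A1 than in HuCC-T1 (log2 fold change -1.90, SE 0.13, adjusted p = 4.2e-09).

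SQLE, the squalene epoxidase, had 36.2, 26.8, 29.7, 30.1 and 27.3 CPM in HuCC-A1, 62.3, 82.4, 67.5, 81.2 and 94.1 CPM in HuCC-T1 and 93.3, 73.9, 101, 73.5 and 99.8 CPM in EGI-1. HuCC-A1 tumors were below all others, while HuCC-T1 and EGI-1 tumors overlapped. It was lower in HuCC-A1 than in EGI-1 (log2 fold change -1.56, SE 0.14, adjusted p = 1.21e-07) and than in HuCC-T1 (log2 fold change -1.37, SE 0.14, adjusted p = 5.84e-07), and the difference of HuCC-T1 from EGI-1 was not called (-0.19, 95% interval -0.49 to 0.12, adjusted p = 0.289). LSS, which closes squalene epoxide into lanosterol, averaged 48.9 ± 4.70 CPM in HuCC-A1, 61.2 ± 27.9 CPM in HuCC-T1 and 145 ± 5.45 CPM in EGI-1. It was lower in HuCC-A1 (log2 fold change -1.57, SE 0.21, adjusted p = 8.07e-06) and HuCC-T1 (log2 fold change -1.24, SE 0.21, adjusted p = 9.9e-05) than in EGI-1, and the HuCC-T1 mean included 1 tumor at 108 CPM above a next highest value of 65.5 CPM.

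The counts of the genes that act on lanosterol and its product departed from the others, those of CYP51A1 being uncertain. CYP51A1, the lanosterol demethylase, was low in all tumors, with 10.4, 6.60, 5.49, 6.60 and 8.44 CPM in HuCC-A1, 5.34, 5.81, 6.70, 7.98 and 10.9 CPM in HuCC-T1 and 1.95, 3.42, 5.07, 3.64 and 5.20 CPM in EGI-1. All HuCC-A1 and HuCC-T1 tumors were above all EGI-1 tumors, by a log2 fold change of 0.96 in HuCC-A1 (SE 0.28, adjusted p = 0.00825) and of 0.93 in HuCC-T1 (SE 0.28, adjusted p = 0.0108). Its exons share 79.4% of their bases with a second gene model on the same strand, AC000120.2, so that reads in the shared part may not have been counted and the level is uncertain. TM7SF2, a sterol reductase, averaged 48.0 ± 11.3 CPM in HuCC-A1, 22.8 ± 14.9 CPM in HuCC-T1 and 38.3 ± 6.73 CPM in EGI-1. It was higher in HuCC-A1 than in HuCC-T1 (log2 fold change 1.07, SE 0.30, adjusted p = 0.0066). Its call in HuCC-T1 against EGI-1 (log2 fold change -0.75, SE 0.30, adjusted p = 0.0487) was lost in 12 of the 15 fits that left out a tumor and in 5 of 9 other settings, with adjusted p-values of 0.000189 to 0.116, and without HuCC-T1 replicate 1 the log2 fold change was -1.19.

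Of the 6 genes that remove methyl groups and finish the sterol ring, 5 were lower in HuCC-A1 than in EGI-1, and MSMO1 and DHCR7 were also lower in HuCC-T1. MSMO1, the methylsterol monooxygenase, averaged 35.3 ± 3.23 CPM in HuCC-A1, 60.1 ± 18.0 CPM in HuCC-T1 and 101 ± 12.2 CPM in EGI-1, and was lower than in EGI-1 in HuCC-A1 (-1.51, adjusted p = 9.91e-07) and HuCC-T1 (-0.74, adjusted p = 0.00127). DHCR7, the reductase of the last step, ranged over 43.6 to 58.1 CPM in HuCC-A1, 44.9 to 73.8 CPM in HuCC-T1 and 88.2 to 123 CPM in EGI-1. Its log2 fold change against EGI-1 was -1.10 in HuCC-A1 (adjusted p = 9.97e-06) and -1.01 in HuCC-T1 (adjusted p = 2.96e-05), and neither model overlapped EGI-1. HSD17B7, the ketoreductase of sterol demethylation, ranged over 11.1 to 14.5 CPM in HuCC-A1, 13.6 to 23.6 CPM in HuCC-T1 and 17.0 to 23.6 CPM in EGI-1 and was lower in HuCC-A1 than in EGI-1 (-0.67, adjusted p = 0.00266). Between HuCC-A1 and HuCC-T1, MSMO1 (-0.77, adjusted p = 0.000872) and HSD17B7 (-0.57, adjusted p = 0.00822) were lower in HuCC-A1. SC5D, the sterol desaturase, averaged 34.7 ± 5.34 CPM in HuCC-A1, 42.7 ± 6.26 CPM in HuCC-T1 and 53.8 ± 6.98 CPM in EGI-1 and was lower in HuCC-A1 than in EGI-1 (-0.63, adjusted p = 0.00121). NSDHL, a dehydrogenase of the same demethylation complex, averaged 49.3 ± 5.42 CPM in HuCC-A1, 59.1 ± 16.8 CPM in HuCC-T1 and 71.3 ± 18.7 CPM in EGI-1. Its call in HuCC-A1 against EGI-1 (-0.53, adjusted p = 0.0264) was lost without HuCC-A1 replicate 5 or EGI-1 replicate 1, with adjusted p-values of 0.0603 and 0.0851. For EBP, the sterol isomerase, which averaged 57.9 ± 10.7 CPM in HuCC-A1, 70.8 ± 30.8 CPM in HuCC-T1 and 71.7 ± 19.2 CPM in EGI-1, the 95% intervals against EGI-1 ran from -0.84 to 0.22 in HuCC-A1 and from -0.55 to 0.52 in HuCC-T1, on the log2 scale.

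**Figure D3:**
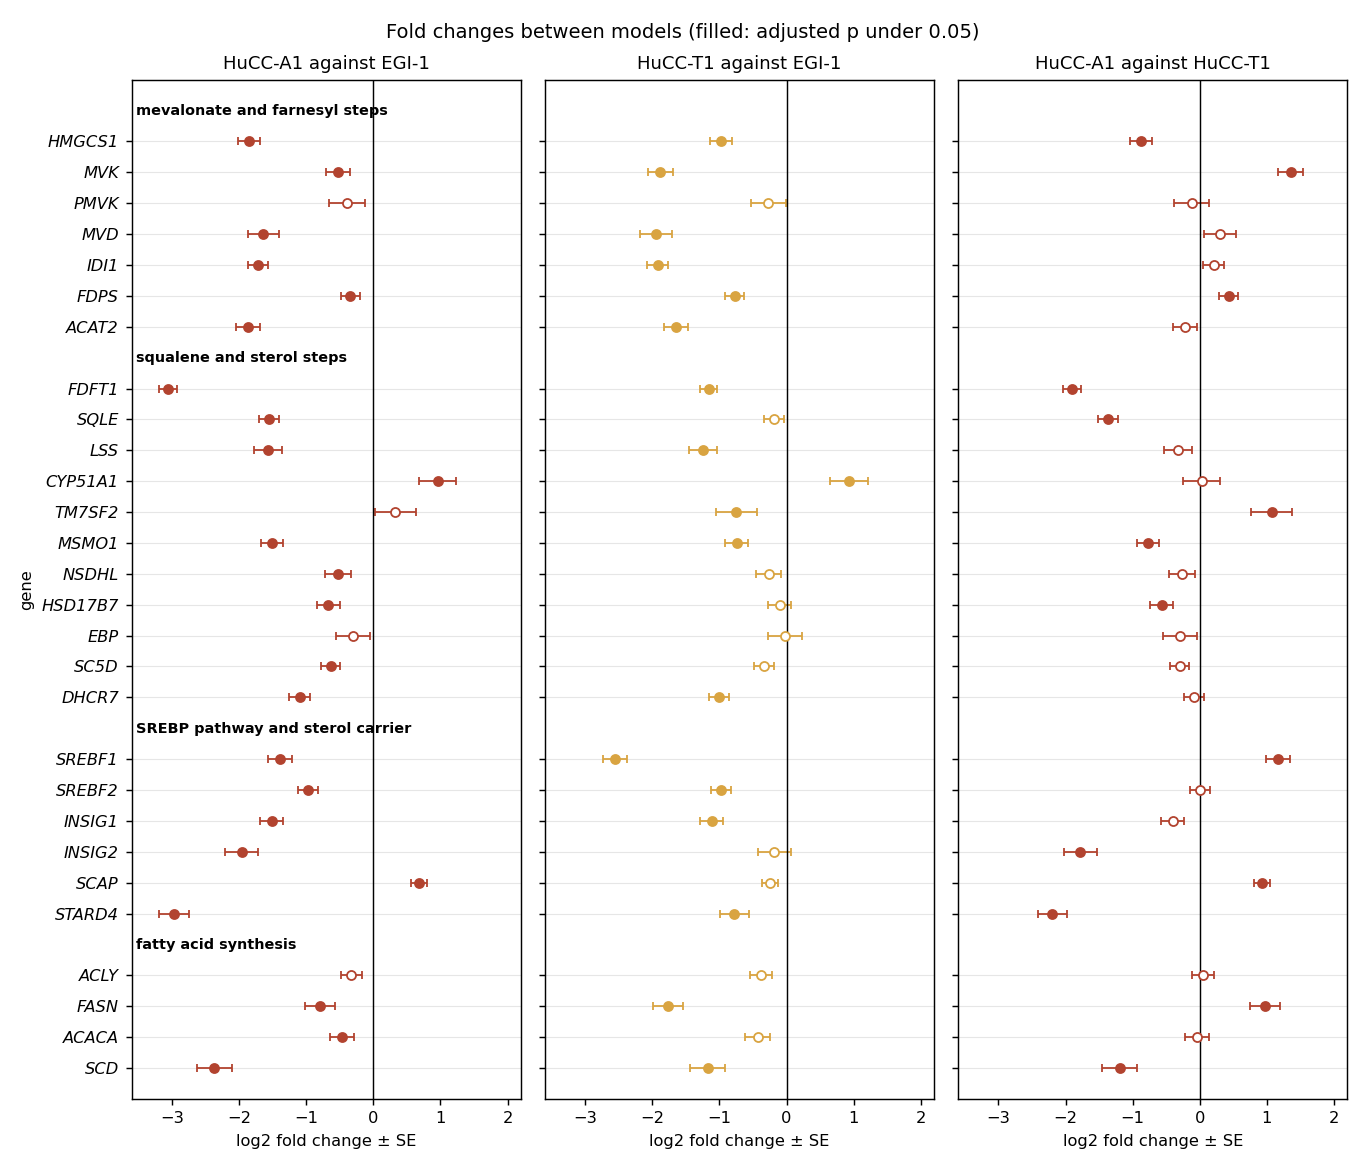
Log2 fold change ± SE of each gene in the 3 comparisons, fitted by edgeR on all 15 tumors. Filled points passed an adjusted p of 0.05 and open points did not. Most filled points lie left of 0 in both comparisons with EGI-1, FDFT1 and STARD4 furthest left in HuCC-A1 (-3.06 and -2.97) and SREBF1 in HuCC-T1 (-2.56), while the points of HuCC-A1 against HuCC-T1 lie on both sides.

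Of the 6 regulators and carriers, 5 were lower in HuCC-A1 and 4 in HuCC-T1 than in EGI-1, with median log2 fold changes of -1.45 in HuCC-A1 and -0.88 in HuCC-T1. SREBF1 (chr17:17810399-17837002), which encodes the SREBP that mainly drives fatty acid genes, had 119.9, 129, 169, 188 and 178 CPM in HuCC-A1, 65.9, 54.9, 53.5, 68.7 and 106 CPM in HuCC-T1 and 407, 415, 422, 383 and 428 CPM in EGI-1. The 5 EGI-1 tumors stayed within a narrow band above all others, and the HuCC-A1 tumors lay above all HuCC-T1 tumors. SREBF1 was 5.89-fold lower in HuCC-T1 than in EGI-1 (log2 fold change -2.56, SE 0.18, adjusted p = 9.73e-09), 2.62-fold lower in HuCC-A1 than in EGI-1 (log2 fold change -1.39, SE 0.18, adjusted p = 5.52e-06) and 2.25-fold higher in HuCC-A1 than in HuCC-T1 (log2 fold change 1.17, SE 0.18, adjusted p = 3.48e-05).

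SREBF2, which encodes the SREBP of the cholesterol genes, had 148, 115, 154, 147 and 168 CPM in HuCC-A1, 139, 122, 117, 142 and 205 CPM in HuCC-T1 and 285, 272, 298, 288 and 291 CPM in EGI-1. The tumors of HuCC-A1 and HuCC-T1 overlapped each other and were all below EGI-1. The log2 fold change was -0.97 (SE 0.15, adjusted p = 3.27e-05) in HuCC-A1 and -0.98 (SE 0.15, adjusted p = 3.63e-05) in HuCC-T1 against EGI-1. Between HuCC-A1 and HuCC-T1 it was 0.01, with a 95% interval of -0.31 to 0.32.

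INSIG1 and INSIG2 encode the proteins that retain the SREBP complex. INSIG1, itself a target of SREBP, had 14.9, 11.3, 16.6, 18.3 and 19.1 CPM in HuCC-A1, 16.4, 24.3, 18.2, 18.5 and 28.5 CPM in HuCC-T1 and 50.7, 44.6, 46.6, 45.7 and 42.0 CPM in EGI-1. All EGI-1 tumors were above all others (-1.51 in HuCC-A1, adjusted p = 1.26e-06, and -1.11 in HuCC-T1, adjusted p = 3.95e-05). INSIG2 had 19.1, 40.8, 20.1, 21.7 and 19.9 CPM in HuCC-A1, 82.8, 112, 85.5, 97.1 and 38.9 CPM in HuCC-T1 and 80.1, 98.8, 82.8, 119 and 92.3 CPM in EGI-1. Here HuCC-A1 stood below EGI-1 by 3.89-fold (log2 fold change -1.96, SE 0.25, adjusted p = 5.71e-06) and was lower than HuCC-T1 (log2 fold change -1.78, SE 0.25, adjusted p = 1.6e-05). The ranges of HuCC-A1 and HuCC-T1 overlapped, as HuCC-A1 replicate 2 (40.8 CPM) lay above HuCC-T1 replicate 5 (38.9 CPM). HuCC-T1 against EGI-1 was not called (-0.18, 95% interval -0.71 to 0.34).

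SCAP, the escort of SREBP to the Golgi, was the one regulator with its highest level in HuCC-A1. It had 121, 106, 111, 96.2 and 119 CPM in HuCC-A1, 63.2, 50.5, 53.6, 56.4 and 67.9 CPM in HuCC-T1 and 72.2, 71.3, 71.5, 69.5 and 61.2 CPM in EGI-1. Every HuCC-A1 tumor was above every other tumor, and HuCC-A1 was 1.60-fold higher than EGI-1 (log2 fold change 0.68, SE 0.11, adjusted p = 8.25e-05) and 1.90-fold higher than HuCC-T1 (log2 fold change 0.92, SE 0.11, adjusted p = 3.23e-06). STARD4 (chr5:111496033-111512590), a soluble carrier that moves cholesterol between membranes, had 6.13, 8.05, 5.36, 9.69 and 9.94 CPM in HuCC-A1, 21.1, 44.5, 31.8, 35.0 and 47.0 CPM in HuCC-T1 and 51.0, 60.4, 69.8, 50.5 and 75.3 CPM in EGI-1. The ranges of the 3 models did not overlap, with HuCC-A1 lowest. STARD4 fell to 7.83 ± 2.06 CPM in HuCC-A1, against 61.4 ± 11.1 CPM in EGI-1, 7.84-fold lower (log2 fold change -2.97, SE 0.22, adjusted p = 1.39e-08), and was 4.58-fold lower in HuCC-A1 than in HuCC-T1 (log2 fold change -2.19, SE 0.22, adjusted p = 4.16e-07). In HuCC-T1 it was lower than in EGI-1 by less (log2 fold change -0.78, SE 0.22, adjusted p = 0.00649).

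The letters of the SREBP binding site were looked for in the promoters of the 28 genes. RefSeq windows on GRCh38.p14, 250 bases before to 50 after a transcription start, were matched by symbol to 24 of the 28 genes, as 33 windows. Both strands were searched. The core of the sterol response element, CACNCCAC, was found in 7 of the 33 windows, of 6 genes (SREBF2, INSIG1, IDI1, SCD, SC5D and ACACA), or 21.2%, against 5.87% of all 35116 windows. The CCAAT box (CCAAT) was in 23 of the 33 windows, or 69.7%, against 34.6% of all, and the GC box (GGGCGG) in 30, or 90.9%, against 45.0% of all. The E-box CACGTG was in 5 windows, of INSIG1, LSS, SC5D and SCAP, or 15.2%, against 7.26% of all. These are descriptions of letters in a window and no evidence of binding. The genes were chosen from routes that SREBP switches on, so these shares say nothing about the differences between the tumors. The stretches around the core are shown for the 3 genes where they lie outside the gene's own annotated exons, on the strand of the gene and with the core in capitals. The core is on the other strand in INSIG1 and ACACA, where it reads as its reverse complement.
SREBF2 (chr22:41832953-41833000, forward strand, core 132 to 125 bases before the start): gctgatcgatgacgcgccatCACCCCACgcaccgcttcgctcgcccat
INSIG1 (chr7:155297650-155297697, forward strand, core 208 to 201 bases before the start): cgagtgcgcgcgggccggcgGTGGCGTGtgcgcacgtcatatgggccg
ACACA (chr17:37299964-37300011, reverse strand, core 224 to 217 bases before the start): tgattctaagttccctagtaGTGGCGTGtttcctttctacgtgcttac
The other 18 genes with a window had no core in it. Fold changes were not compared between genes with and without the core.

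Of the 4 fatty acid genes, 3 were lower in HuCC-A1 and 2 in HuCC-T1 than in EGI-1, with median log2 fold changes of -0.63 in HuCC-A1 and -0.80 in HuCC-T1. SCD (chr10:100347124-100364834), the desaturase that makes monounsaturated fatty acids, had the highest TPM of the 28 genes in EGI-1 (367 ± 119) and in HuCC-T1 (166 ± 88.3), and FASN had the highest in HuCC-A1 (104 ± 14.2). SCD had 136, 121, 82.8, 119.8 and 119 CPM in HuCC-A1, 183, 225, 171, 225 and 516 CPM in HuCC-T1 and 516, 519, 569, 506 and 876 CPM in EGI-1. HuCC-A1 tumors were below all others, and 1 HuCC-T1 tumor reached the EGI-1 range. SCD was 5.17-fold lower in HuCC-A1 than in EGI-1 (log2 fold change -2.37, SE 0.26, adjusted p = 1.54e-06), 2.26-fold lower in HuCC-T1 than in EGI-1 (log2 fold change -1.18, SE 0.26, adjusted p = 0.00137) and 2.29-fold lower in HuCC-A1 than in HuCC-T1 (log2 fold change -1.19, SE 0.26, adjusted p = 0.00109). Without HuCC-T1 replicate 5 the HuCC-T1 log2 fold change against EGI-1 was -1.57, and that of HuCC-A1 against HuCC-T1 was -0.82.

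FASN (chr17:82078333-82098332), the fatty acid synthase, had 323, 225, 249, 261 and 285 CPM in HuCC-A1, 105, 114, 93.1, 122 and 252 CPM in HuCC-T1 and 468, 416, 489, 435 and 523 CPM in EGI-1. EGI-1 was above all others, and HuCC-T1 replicate 5 lay within the HuCC-A1 range, far above the other HuCC-T1 tumors. FASN was 3.40-fold lower in HuCC-T1 than in EGI-1 (log2 fold change -1.76, SE 0.22, adjusted p = 5.21e-06), 1.73-fold lower in HuCC-A1 than in EGI-1 (log2 fold change -0.79, SE 0.22, adjusted p = 0.00531) and 1.96-fold higher in HuCC-A1 than in HuCC-T1 (log2 fold change 0.97, SE 0.22, adjusted p = 0.00122). SCD and FASN ordered HuCC-A1 and HuCC-T1 in opposite ways. ACACA, the acetyl-CoA carboxylase that makes malonyl-CoA, averaged 99.7 ± 16.5 CPM in HuCC-A1, 102 ± 28.7 CPM in HuCC-T1 and 138 ± 19.0 CPM in EGI-1. Its call in HuCC-A1 against EGI-1 (log2 fold change -0.47, SE 0.18, adjusted p = 0.035) was lost in 6 of the 15 fits that left out a tumor, with adjusted p-values up to 0.0872. ACLY, which releases acetyl-CoA from citrate for both routes, averaged 132 ± 13.7 CPM in HuCC-A1, 128 ± 33.7 CPM in HuCC-T1 and 166 ± 16.9 CPM in EGI-1, and was not called in the 3 comparisons. Its log2 intervals against EGI-1, 95% and unadjusted, were -0.66 to 0.00 in HuCC-A1 (adjusted p = 0.0847) and -0.71 to -0.05 in HuCC-T1 (adjusted p = 0.052). ACLY was called lower in HuCC-A1 than in EGI-1 in 4 of the 24 other settings, among them without HuCC-T1 replicate 1 (adjusted p = 0.04) or 5 (0.0302), and lower in HuCC-T1 than in EGI-1 in 5, among them without EGI-1 replicate 1 (0.0402) or HuCC-T1 replicate 5 (0.00381).

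Tumors of 1 model varied most in HuCC-T1. The coefficient of variation of CPM over the 5 tumors had a median over the 28 genes of 13.9% in HuCC-A1, 27.5% in HuCC-T1 and 13.9% in EGI-1. HuCC-T1 replicate 5 exceeded the median of its model by more than 0.5 on the log2 scale for 11 of the 28 genes and was lower by that much for 1, INSIG2, where 17.1% of all genes tested were higher and 13.8% lower. Its median deviation was 0.89 for the fatty acid genes and 0.49 for the regulators. This tumor also had the highest summed proliferation level of its model, 2062 CPM against 1006 to 1339 CPM in the others, and that list's part in the deviation was not tested. HuCC-T1 replicate 1 exceeded the median by that much for 4 genes and was lower by that much for STARD4 and ACACA, where 20.4% of all genes were higher and 19.9% lower, so that its count of higher genes was under that share. The largest excess was that of TM7SF2, with 48.5 CPM, against 11.5 to 22.2 CPM in the other HuCC-T1 tumors. Its fibroblast markers summed to 3731 CPM against 828 to 1281 CPM in the others, and its biliary markers to 19180 CPM against 8176 to 12327 CPM. POSTN, whose highest value in HuCC-T1 was 3287 CPM, made up most of the 3731 CPM.

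**Figure D4:**
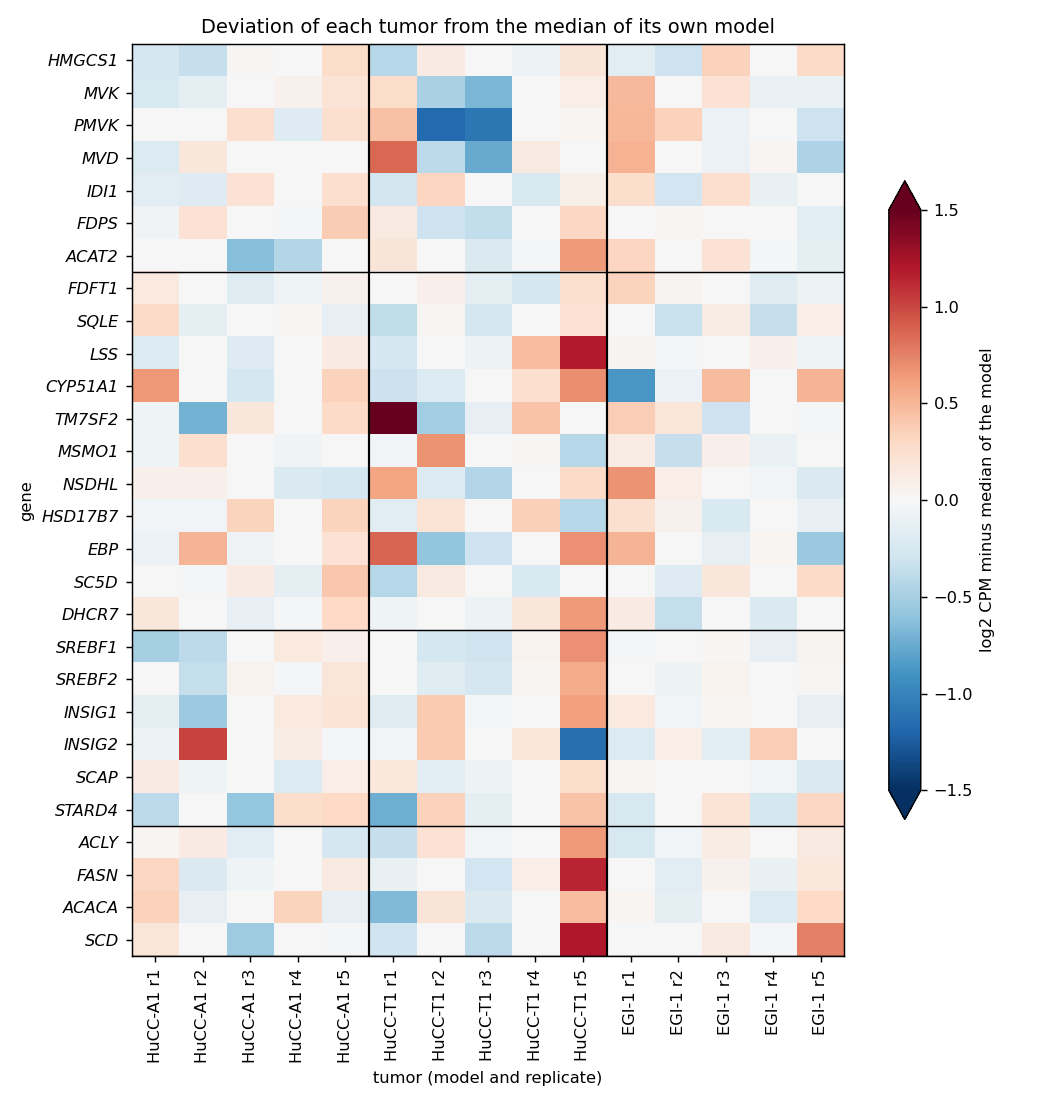
Log2 CPM of each gene in each tumor minus the median of its own model, for the 28 genes (rows, grouped by role) and 15 tumors (columns, r for replicate). Red is above and blue below the median, with the scale ending at 1.5 on either side. HuCC-T1 replicate 5 is red for 11 genes by more than 0.5 and blue for INSIG2, and most HuCC-A1 and EGI-1 columns are pale.

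Neighbouring pathways had genes on both sides, beside the same shares and medians of all genes as above. Of 27 tested genes of fatty acid elongation, desaturation and activation, 10 were higher and 10 lower in HuCC-A1 than in EGI-1, and 8 were higher and 10 lower in HuCC-T1, with median log2 fold changes of -0.12 in HuCC-A1 and 0.09 in HuCC-T1. ACSL5, which activates long-chain fatty acids, averaged 6.39 ± 1.70 CPM in HuCC-A1, 94.2 ± 15.6 CPM in HuCC-T1 and 184 ± 12.8 CPM in EGI-1 and was lower in HuCC-A1 than in EGI-1 by a log2 fold change of -4.85 (adjusted p = 3.83e-12). ELOVL6, an elongase and a known SREBP target, averaged 8.11 ± 1.69 CPM in HuCC-A1, 17.7 ± 10.4 CPM in HuCC-T1 and 44.2 ± 7.62 CPM in EGI-1 (-2.45 in HuCC-A1 against EGI-1, adjusted p = 1.93e-06). SLC25A1, the carrier that exports citrate from mitochondria, averaged 48.4 ± 5.50 CPM in HuCC-A1, 46.0 ± 16.6 CPM in HuCC-T1 and 155 ± 26.6 CPM in EGI-1 (-1.75 in HuCC-T1 against EGI-1, adjusted p = 2.92e-06). Others were higher than in EGI-1. FADS3, of the fatty acid desaturase family, averaged 138 ± 54.3 CPM in HuCC-A1, 19.8 ± 4.21 CPM in HuCC-T1 and 21.3 ± 3.95 CPM in EGI-1 (2.69 in HuCC-A1 against EGI-1, adjusted p = 5.9e-08). ACSS1, a mitochondrial acetyl-CoA synthetase, averaged 59.4 ± 24.1 CPM in HuCC-A1, 29.3 ± 6.88 CPM in HuCC-T1 and 12.1 ± 3.73 CPM in EGI-1 (2.30 in HuCC-A1 against EGI-1, adjusted p = 1.93e-06). In HuCC-T1 against EGI-1 the highest log2 fold changes of this list were those of ACACB, the mitochondrial acetyl-CoA carboxylase (2.32, adjusted p = 9.17e-08), and ACSL4, which activates polyunsaturated fatty acids (2.30, adjusted p = 1.23e-07).

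The 14 other genes of SREBP processing and sterol sensing had 6 higher and 3 lower in HuCC-A1, and 8 higher and 3 lower in HuCC-T1, than in EGI-1 (medians of 0.27 in HuCC-A1 and 0.49 in HuCC-T1). PGRMC1, a membrane protein that binds heme, averaged 142 ± 12.3 CPM in HuCC-A1, 146 ± 30.9 CPM in HuCC-T1 and 60.7 ± 5.84 CPM in EGI-1 and was higher in HuCC-A1 (1.22, adjusted p = 1.01e-06) and HuCC-T1 (1.27, adjusted p = 9.25e-07) than in EGI-1. RNF139, a ubiquitin ligase of the endoplasmic reticulum, averaged 24.7 ± 0.784 CPM in HuCC-A1, 58.5 ± 11.9 CPM in HuCC-T1 and 39.6 ± 2.25 CPM in EGI-1 and was lower in HuCC-A1 than in EGI-1 (-0.68, adjusted p = 0.000295). Of 21 tested genes of sterol transport, esterification and LXR targets, 9 were higher and 6 lower in HuCC-A1, and 10 higher and 6 lower in HuCC-T1, with a median of 0.25 in both. NR1H3, an oxysterol receptor known to activate SREBF1, averaged 9.30 ± 1.04 CPM in HuCC-A1, 25.6 ± 9.42 CPM in HuCC-T1 and 52.8 ± 3.13 CPM in EGI-1 and was lower in HuCC-A1 than in EGI-1 (-2.50, adjusted p = 1.74e-08). VLDLR, a lipoprotein receptor, averaged 20.6 ± 5.62 CPM in HuCC-A1, 22.4 ± 6.04 CPM in HuCC-T1 and 0.164 ± 0.0645 CPM in EGI-1 and was higher in HuCC-A1 (6.91, adjusted p = 5.64e-11) and HuCC-T1 (7.03, adjusted p = 7.56e-11) than in EGI-1. GRAMD1B, a sterol transfer protein, ranged over 0.161 to 1.33 CPM in HuCC-A1, 2.24 to 37.2 CPM in HuCC-T1 and 0.00 to 2.40 CPM in EGI-1 and was higher in HuCC-T1 than in EGI-1 (4.99, adjusted p = 0.000499).

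The isoprenoid branch had 1 of 14 tested genes higher and 5 lower in HuCC-A1, and 4 higher and 5 lower in HuCC-T1, than in EGI-1, with a median of -0.08 in both. Its FDX1, a ferredoxin that passes electrons to mitochondrial enzymes, averaged 10.7 ± 1.91 CPM in HuCC-A1, 22.0 ± 2.30 CPM in HuCC-T1 and 41.6 ± 3.98 CPM in EGI-1 (-1.96 in HuCC-A1 against EGI-1, adjusted p = 8.59e-09). Triglyceride synthesis and lipid droplets had 3 of 18 tested genes higher and 8 lower in HuCC-A1, and 3 higher and 10 lower in HuCC-T1 (medians of -0.20 in HuCC-A1 and -0.76 in HuCC-T1). PLIN2, the coat protein of lipid droplets, averaged 23.1 ± 8.93 CPM in HuCC-A1, 1.84 ± 1.58 CPM in HuCC-T1 and 77.7 ± 14.9 CPM in EGI-1 and was lower than in EGI-1 in HuCC-T1 (-5.41, adjusted p = 9.54e-08) and in HuCC-A1 (-1.75, adjusted p = 0.00138). LPIN2, a phosphatidate phosphatase, ranged over 91.3 to 143 CPM in HuCC-A1, 20.1 to 42.0 CPM in HuCC-T1 and 36.3 to 52.7 CPM in EGI-1 and exceeded EGI-1 levels in HuCC-A1 (1.41, adjusted p = 5.47e-06). MOGAT2, a monoacylglycerol acyltransferase, averaged 6.66 ± 1.82 CPM in HuCC-A1, 3.28 ± 0.597 CPM in HuCC-T1 and 0.0302 ± 0.0676 CPM in EGI-1. Of the 18 proliferation genes, 3 were higher and 8 lower in HuCC-A1, and 0 were higher and 8 lower in HuCC-T1, than in EGI-1 (medians of -0.34 in HuCC-A1 and -0.44 in HuCC-T1).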

How the data were processed

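RNA of 15 CDX tumors was analysed, grouped by the cell line in the sample labels. Per the submitters' processing notes, reads were handled with CASAVA, aligned to GRCh38 with HISAT2 2.0.5 and counted with featureCounts 1.5.0-p3. The values the authors deposited are raw counts per gene. How strand was handled, which annotation was counted and whether mouse reads were removed is, for each, not given in the sources used here. All 58735 identifiers are in GENCODE 29, which gave exon lengths for TPM.

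All 15 tumors entered 1 fit in edgeR 4.0.16 (R 4.3.3), with TMM factors, filterByExpr and the quasi-likelihood F test on 12 residual degrees of freedom. The fit gave a common BCV (biological coefficient of variation) of 0.338. CPM use TMM-scaled totals, and 95% intervals use the t distribution. The smallest chi-square per degree of freedom between 2 tumors of a model was 37.9, so that replicates differed beyond counting noise. Alternatives were RLE factors, no filter, at least 10 counts in every library, the 10 tumors of a comparison, a replicate block, DESeq2 1.42.0, limma-voom (limma 3.58.1) and leaving out tumors or noncoding and mitochondrial genes. The scripts were tested on simulated counts. The members and lists were chosen with earlier results of these data known. All 28 members are named, and of each other pathway list the 2 most changed called genes per direction and comparison whose mean log2 CPM was 1 or more, some left out for length. Figures were drawn with matplotlib 3.10.9.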

Additional observations from a re-analysis of the deposited data

Results flagged for a closer look

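Of 84 combinations of gene and model, 10 had a tumor whose gap to its nearest neighbour was large for the range of its group by Dixon's ratio, where chance gives about 5%, or 4.2 of 84. Of these, 4 were HuCC-T1 replicate 5, which was the highest tumor of its model for SREBF1 (106 CPM, against 53.5 to 68.7 CPM in the other 4), SREBF2 (205 CPM, against 117 to 142 CPM in the other 4), FASN (252 CPM, against 93.1 to 122 CPM in the other 4) and SCD (516 CPM, against 171 to 225 CPM in the other 4). HuCC-A1 replicate 2 was the highest of its model for MSMO1 (40.9 CPM, against 33.0 to 34.6 CPM in the other 4) and INSIG2 (40.8 CPM, against 19.1 to 21.7 CPM in the other 4). EGI-1 replicate 5 was the highest for SCD (876 CPM, against 506 to 569 CPM in the other 4) and the lowest for FDPS (73.4 CPM, against 82.3 to 84.7 CPM in the other 4) and SCAP (61.2 CPM, against 69.5 to 72.2 CPM in the other 4). EGI-1 replicate 1 was the highest for NSDHL (104 CPM, against 55.6 to 69.3 CPM in the other 4).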

How the results depend on the processing

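The log2 fold changes of the 28 genes were recomputed under 24 settings, 15 of which left out 1 tumor. Of 2016 values, 1893 kept their direction and their side of the threshold, 42 lost a call, 34 gained one and 47 changed sign, none of them a called value. When a tumor was left out, 18 to 23 of the 28 genes were lower than in EGI-1 in HuCC-A1 and 16 to 19 in HuCC-T1. Of all 21429 to 21830 genes tested there, 5155 to 5890 were lower in HuCC-A1 and 4864 to 5430 in HuCC-T1. Under the other settings, 20 to 24 of the 28 genes were lower in HuCC-A1 and 16 to 21 in HuCC-T1. Of all 13786 to 43600 genes tested there, 3922 to 6154 were lower in HuCC-A1 and 3917 to 5603 in HuCC-T1. For HuCC-A1 against HuCC-T1, 8 to 11 of the 28 genes were lower and 5 to 7 higher when a tumor was left out. Of all genes, 5485 to 6094 were lower and 5455 to 6266 higher in those fits. Same-numbered tumors deviated together little (r of -0.105 to 0.186), which gave no sign that the numbers pair the tumors. With replicate number as a block, 20 of the 28 genes were lower in HuCC-A1 than in EGI-1 (5388 of all 21019), 18 were lower in HuCC-T1 than in EGI-1 (5249) and 8 were lower in HuCC-A1 than in HuCC-T1 (5540). Leaving out HuCC-T1 replicates 1 and 5 and keeping protein-coding genes only were chosen after the data were seen.

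All values that changed sign were of uncalled differences. In the edgeR fit given above these ran from -0.29 (EBP) to 0.05 (ACLY), both in HuCC-A1 against HuCC-T1. In HuCC-T1 against EGI-1, EBP was 0.0035 with RLE factors, 0.0074 with at least 10 counts in every library, 0.0018 with DESeq2, 0.053 with protein-coding genes only and -0.20 to 0.14 when a tumor was left out, and HSD17B7 and INSIG2 were 0.11 and 0.094 without HuCC-T1 replicates 1 and 5. In HuCC-A1 against HuCC-T1, that setting gave PMVK 0.24 and EBP 0.16. CYP51A1 was -0.055 without a filter, -0.014 on the 10 tumors compared and -0.029 with protein-coding genes only. SREBF2 was -0.0087 with RLE factors, -0.072 without a filter, -0.036 on the 10 tumors, -0.0077 with DESeq2 and -0.048 with protein-coding genes only, and ACLY was -0.035 without a filter and -0.0096 with protein-coding genes only. When a tumor was left out, the ranges were -0.31 to 0.047 for PMVK, -0.13 to 0.20 for CYP51A1, -0.20 to 0.042 for DHCR7, -0.079 to 0.15 for SREBF2, -0.11 to 0.19 for ACLY and -0.22 to 0.086 for ACACA. The cause of these changes was not tested. Counts were fewest for CYP51A1, with 64 to 351 counts per tumor.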
